A study of Homo sapiens with 15 samples.

Results

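The Sprouty genes SPRY1, SPRY2 and SPRY4, the SPRED genes SPRED1, SPRED2 and SPRED3, the PEA3 group of ETS factors ETV1, ETV4 and ETV5, and PHLDA1 were followed in MG-63 cells on coated and uncoated titanium. These are 10 of the 17687 genes with 1 symbol in the table of 21448 transcript clusters, where a transcript cluster gathers the probes of a gene on a Clariom S array. They were chosen by symbol, and each was represented by 1 transcript cluster. MG-63 is a human osteosarcoma line with osteoblast-like features, and all samples were of this line in DMEM with serum and differed in the surface and the time. The groups were Ti-TMS-PEI after 4 h (n = 4), Ti-Ref after 4 h (n = 4), Ti-TMS-PEI after 24 h (n = 4) and Ti-Ref after 24 h (n = 3). Ti-TMS-PEI is titanium that carries the amino-rich polymer trimethoxysilylpropyl modified poly(ethyleneimine), and Ti-Ref is the same metal without it. The study asked how an amine-based coating changes the behaviour of osteoblasts, and the arrays asked it for gene expression. RNA came from cells that stayed on the chips when these were moved to fresh wells.

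Signals are on the log2 scale, so a difference of 1 is a doubling of the signal. The medians of the arrays were 5.79 to 5.86 at 4 h and 6.71 to 6.79 at 24 h, so each time carries a normalization of its own. Levels are therefore compared only within a time. The precision was set by the number of arrays, which have no read depth, and replicates had a median SD of 0.21 at 4 h and of 0.17 at 24 h. The methods name independent experiments and also technical replicate groups, so the p-values measure the spread between these arrays, which may be partly technical. The collagen gene COL1A1 averaged 14.7 on Ti-TMS-PEI, against 14.8 on Ti-Ref at 4 h, whereas the osteoblast transcription factor SP7 was near the floor of the array at 2.99 on Ti-TMS-PEI, against 2.89 on Ti-Ref. None of the 8 osteoblast lineage markers measured passed the test at either time.

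Growth factors that bind receptor tyrosine kinases switch on the kinase ERK through Ras, RAF and MEK. ERK then raises the transcription of genes whose products hold the same cascade back. Sprouty and SPRED proteins are such inhibitors: SPRED proteins recruit the Ras inactivator neurofibromin, and Sprouty proteins act between the receptor and RAF. The PEA3 factors are transcription factors whose genes follow ERK and FGF receptor activity in many tissues, where the repressor Capicua holds them down while ERK is inactive. PHLDA1 encodes a pleckstrin homology-like protein that is induced by the same cascade. The mRNA levels of these genes are widely used as a readout of ERK activity, but ERK itself was not measured on these arrays.

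Promoters from 250 bases before to 50 bases after the start were taken from RefSeq on GRCh38.p14, and 18 of them belonged to 8 of the genes. ETV4 and ETV5 were not matched. Shown are the promoters of SPRY4 and PHLDA1, whose signals were the most alike among the 10 genes over the arrays, of SPRY2, whose arrays were apart at 4 h and overlapped at 24 h, and of SPRY1, whose arrays overlapped at both times. Capitals mark letters of the motifs below on either strand.
SPRY4, chr5:142324198-142324497, minus strand: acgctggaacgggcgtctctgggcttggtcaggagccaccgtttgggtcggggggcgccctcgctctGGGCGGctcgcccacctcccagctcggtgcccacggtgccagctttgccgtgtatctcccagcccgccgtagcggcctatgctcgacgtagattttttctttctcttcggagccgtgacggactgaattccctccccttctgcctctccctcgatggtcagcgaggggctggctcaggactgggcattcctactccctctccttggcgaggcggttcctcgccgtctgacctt
PHLDA1, chr12:76031727-76032026, minus strand: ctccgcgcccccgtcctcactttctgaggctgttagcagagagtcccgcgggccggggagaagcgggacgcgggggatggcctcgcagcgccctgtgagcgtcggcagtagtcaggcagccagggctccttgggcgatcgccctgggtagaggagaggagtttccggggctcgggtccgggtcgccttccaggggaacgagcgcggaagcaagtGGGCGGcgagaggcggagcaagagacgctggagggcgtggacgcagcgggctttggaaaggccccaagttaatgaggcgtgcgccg
SPRY2, first of 3 promoters, chr13:80341077-80341376, minus strand: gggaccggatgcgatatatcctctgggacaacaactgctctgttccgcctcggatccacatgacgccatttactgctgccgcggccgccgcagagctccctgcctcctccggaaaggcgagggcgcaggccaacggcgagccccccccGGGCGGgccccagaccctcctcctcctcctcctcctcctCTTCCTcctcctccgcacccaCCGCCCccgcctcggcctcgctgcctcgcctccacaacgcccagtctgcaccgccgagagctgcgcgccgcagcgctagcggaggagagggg
SPRY1, second of 2 promoters, chr4:123398136-123398435, plus strand: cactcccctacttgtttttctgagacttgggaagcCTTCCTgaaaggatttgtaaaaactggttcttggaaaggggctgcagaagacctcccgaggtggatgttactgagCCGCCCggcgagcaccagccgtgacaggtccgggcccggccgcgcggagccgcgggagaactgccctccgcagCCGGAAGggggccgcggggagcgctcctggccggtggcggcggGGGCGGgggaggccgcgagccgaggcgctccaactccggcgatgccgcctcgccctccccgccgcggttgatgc

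Both strands were searched for AP-1 (TGANTCA), the cAMP response element (TGACGTCA), an ETS motif (CCGGAAG), 2 forms of the Capicua motif (TGAATGAA and TGAATGGA), the CArG box, the PEA3 motif (AGGAAG), the GC box (GGGCGG) and the TATA box (TATAAA). The last 3 of these were added after the promoters had been read. The ETS and PEA3 motifs share the letters GGAAG, but a stretch cannot match both on the same strand. The promoters of SPRY4 and PHLDA1 held 1 match each, a GC box whose first base was at position -183 from the start of SPRY4 and at -36 from that of PHLDA1. The SPRY2 promoter shown held a PEA3 motif and a pair of GC boxes. The SPRY1 promoter shown held the ETS motif, a PEA3 motif and a pair of GC boxes. Of the promoters not shown, the first of SPRY1 held 0 matches, and the second of SPRY2 held 1 and the third 2. Over the 18 promoters, AP-1 was found in 2, where 7.71% of all 35116 promoters of the table held it. The ETS motif was found in 1 (10.3% of all promoters), TGAATGAA in 1 (1.65%) and TGAATGGA in 1 (1.03%). The cAMP response element and the CArG box were found in 0 of the 18, where 1.85% of all promoters held the response element and 1.29% the CArG box. The PEA3 motif was found in 10 (33.6%), the GC box in 12 (45.0%) and the TATA box in 1 (11.5%). Counted by gene, the PEA3 motif was in 6 of the 8 genes and the GC box in 8. The share by gene was not counted over all genes, so these counts have no background. A gene with several promoters has more stretches in which a match can fall. The 18 promoters are not separate stretches, since 6 belong to ETV1, where 1 pair shares 296 bases with the same PEA3 motif and GC box and another pair shares 124 bases. A match is a description of the letters and not a binding site.

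After 4 h, SPRY4 was upregulated on the coating, and SPRY2, SPRED1, SPRED2, ETV5 and PHLDA1 had higher signals on every Ti-TMS-PEI array without passing the test over all transcript clusters. The largest log2 fold changes after that of SPRY4 were those of SPRY2 and PHLDA1, at 1.69-fold each. To be called, a gene needed a change of more than 1.5-fold together with p-values below 0.05 from limma both before and after the Benjamini-Hochberg adjustment over all 21448 transcript clusters. By this rule 1 of the 10 genes was called, higher on Ti-TMS-PEI, where 0.0326% of all transcript clusters were, and 0 were called lower (0.00932%). In either direction, and also without the fold threshold, 0.042% of all transcript clusters passed. In 6 of the 10 every Ti-TMS-PEI array was above every Ti-Ref array, against 2.98% of all transcript clusters, and in 0 of the 10 every array was below (2.79%). The same 6 had an unadjusted p under 0.05, against 4.4% of all transcript clusters in this direction, and 0 of the 10 had one in the other (5.06%). In 9 of the 10 the Ti-TMS-PEI mean was the higher one (48.6% of all transcript clusters). The median log2 fold change of the 10 genes was 0.38, and that of all transcript clusters was -0.01, with the 5th to 95th percentile from -0.37 to 0.34.

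SPRY4, a Sprouty inhibitor of receptor tyrosine kinase signaling, had log2 signals of 13.53, 13.61, 13.45 and 13.51 on the Ti-TMS-PEI arrays of 4 h, against 12.36, 12.51, 12.68 and 12.45 on the Ti-Ref arrays. The 4 Ti-TMS-PEI arrays lay within 0.16 of each other, and the lowest was 0.77 above the highest Ti-Ref array. The log2 fold change was 1.02 ± 0.11 (SE, 95% interval 0.79 to 1.26), or 2.03-fold, with an adjusted p of 0.0240 from limma. By p it was the transcript cluster in rank 2 of all. A higher signal in such bulk RNA can come from more cells that express a gene or from more RNA per cell, and these cannot be told apart. The call was kept without Ti-Ref C (adjusted p = 0.0303 from limma) and was lost without any of the other 7 arrays, where the log2 fold change was 0.98 to 1.05 and the adjusted p 0.0714 to 0.132.

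SPRY2, the other Sprouty gene that was higher, had 9.57, 9.51, 9.28 and 9.34 on Ti-TMS-PEI, against 8.45, 8.66, 8.90 and 8.67 on Ti-Ref. The surfaces were 0.38 apart, with Ti-Ref C the highest of the uncoated arrays, as it was for SPRY4. The log2 fold change was 0.76 ± 0.13 (SE), with a p of 0.00013 and an adjusted p of 0.0891 from limma. SPRY1 had signals of 9.90, 9.66, 9.49 and 9.52 on Ti-TMS-PEI, against 10.02, 10.06, 9.52 and 9.43 on Ti-Ref. On both surfaces arrays A and B were above C and D, and the surfaces overlapped. Its log2 fold change of -0.12 had a 95% interval from -0.50 to 0.27, which does not reach the changes of SPRY2 and SPRY4.

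Among the SPRED genes, which encode membrane proteins with a Sprouty-related domain, SPRED2 had 10.95, 11.27, 10.94 and 10.91 on Ti-TMS-PEI, against 10.43, 10.60, 10.56 and 10.45 on Ti-Ref. SPRED1 had 10.59, 10.52, 10.75 and 10.53 on Ti-TMS-PEI, against 10.17, 10.08, 10.24 and 10.29 on Ti-Ref. In both genes all coated arrays were above all uncoated ones, by 0.31 for SPRED2 and by 0.23 for SPRED1. The log2 fold changes were 0.51 ± 0.11 for SPRED2 and 0.40 ± 0.10 for SPRED1 (SE), with adjusted p-values of 0.197 for SPRED2 and 0.268 for SPRED1 from limma. SPRED3, mostly below the medians of the arrays, had 5.91, 5.68, 4.73 and 5.31 on Ti-TMS-PEI, against 5.22, 5.17, 5.25 and 4.66 on Ti-Ref. Its surfaces overlapped, and the 95% interval of its log2 fold change (0.33) ran from -0.21 to 0.88, which holds 0 as well as the change of SPRED2.

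PHLDA1 had 12.95, 12.65, 12.93 and 12.85 on Ti-TMS-PEI, against 11.76, 12.27, 12.30 and 12.03 on Ti-Ref. The surfaces were 0.35 apart, and the uncoated arrays were spread wider than the coated ones (SD 0.25 on Ti-Ref and 0.14 on Ti-TMS-PEI). The log2 fold change equalled that of SPRY2 at 0.76 but with a larger error (SE 0.14) and an adjusted p of 0.136 from limma.

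The transcription factor ETV5 had 11.68, 11.79, 11.70 and 11.66 on Ti-TMS-PEI, against 11.18, 11.33, 11.32 and 11.60 on Ti-Ref. Only 0.06 separated the surfaces, since Ti-Ref D was close to the coated arrays, and the log2 fold change was 0.35 ± 0.11 (SE, adjusted p = 0.383 from limma). ETV1 had 9.89, 10.20, 9.99 and 10.35 on Ti-TMS-PEI, against 9.69, 9.83, 9.70 and 10.07 on Ti-Ref. Its surfaces overlapped through Ti-Ref D, again the highest uncoated array, and its log2 fold change of 0.28 had a 95% interval from -0.02 to 0.59. ETV4 had 6.51, 6.45, 6.60 and 6.47 on Ti-TMS-PEI, against 6.45, 6.49, 6.15 and 6.35 on Ti-Ref and overlapped as well (log2 fold change 0.15, 95% interval -0.10 to 0.39).

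**Figure D1:**
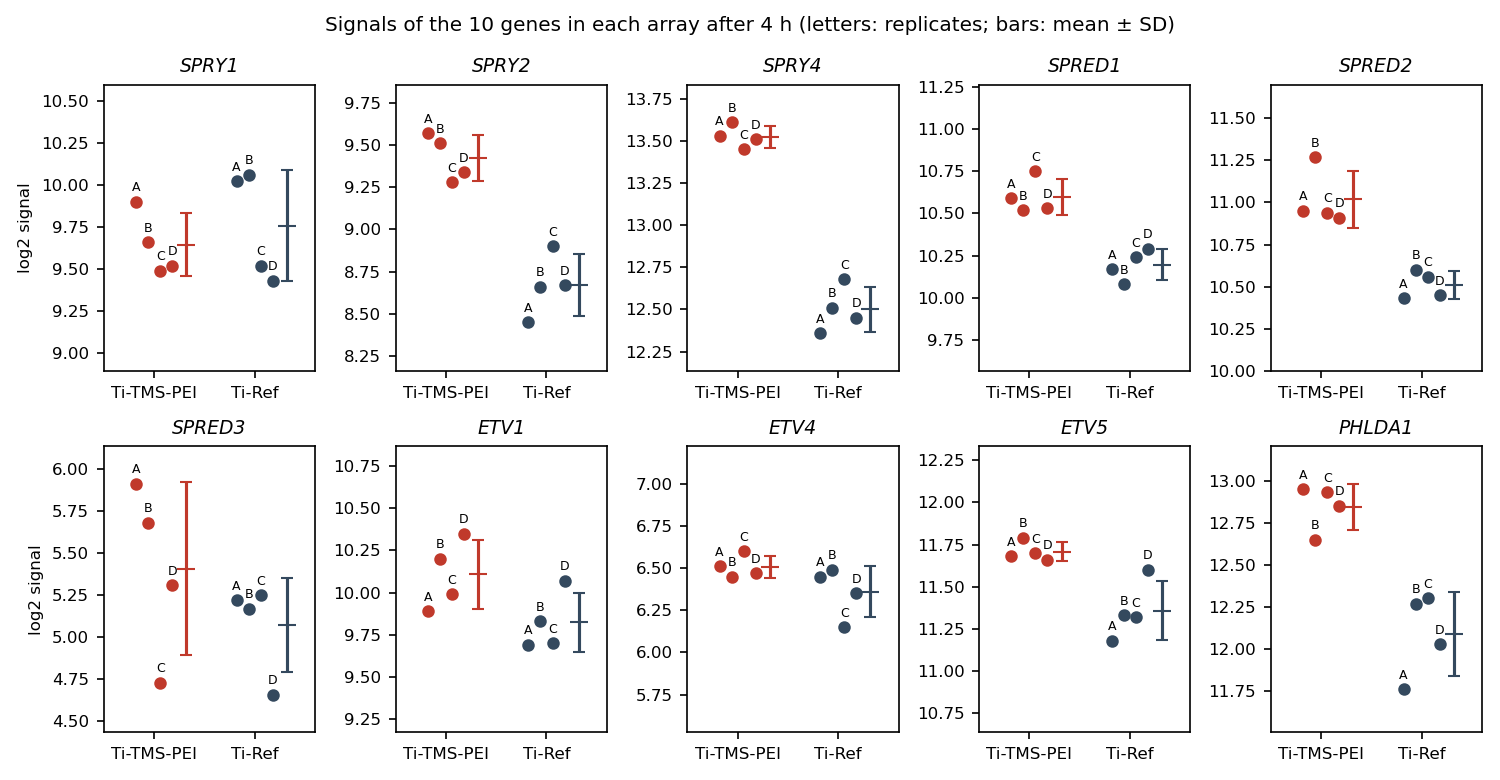
Log2 signals (y axis, each panel with its own range of levels) of the 10 genes on Ti-TMS-PEI (left, red, 4 arrays) and Ti-Ref (right, blue, 4 arrays) after 4 h, where points are arrays with their replicate letter and bars are the mean ± SD. The coated arrays of SPRY4 lie between 13.45 and 13.61, all above the uncoated arrays, and those of SPRY1 overlap with them.

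Markers of other cell types were read beside these values. Of 8 blood cell markers measured, 6 were higher in the mean on Ti-TMS-PEI at 4 h (48.6% of all transcript clusters) and 0 were called. An unadjusted p under 0.05 was reached by 2, both higher (4.4% of all). They were the globin HBA1 at a log2 fold change of 0.72 and the macrophage marker CD68 at 0.37. The mean over the 8 markers was 5.19 to 5.30 on the Ti-TMS-PEI arrays and 4.93 to 5.15 on the Ti-Ref arrays. The leukocyte marker PTPRC was dim, at 3.92 on Ti-TMS-PEI, against 3.79 on Ti-Ref, and the globin HBB was at 3.32 on Ti-TMS-PEI, against 3.06 on Ti-Ref. The part of these signals in the higher values of SPRY4 and the other genes was not tested. The list means of the 4 endothelial markers overlapped between the surfaces at 4 h, as did those of the 4 epithelial and the 4 neural markers. Higher in the mean on Ti-TMS-PEI were 4 endothelial (median log2 fold change 0.30), 2 epithelial and 2 neural markers. Of these 3 lists 0 markers were called, and the neural marker SOX10 alone had an unadjusted p under 0.05 (log2 fold change 0.29).

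After 24 h, PHLDA1 was upregulated on the coating, SPRY4 was higher by a little less than the fold threshold, and SPRED1 was higher on every coated array without passing the test. SPRY2 and SPRED2 overlapped between the surfaces, and ETV1 was lower on every coated array without passing the test. By the same rule 1 of the 10 genes was called, higher on Ti-TMS-PEI, where 3.46% of all transcript clusters were, and 0 were called lower (2.69%, and 6.15% in either direction). Whatever the fold, 2 of the 10 had an adjusted p under 0.05 from limma, against 9.42% of all transcript clusters. In 3 of the 10 every Ti-TMS-PEI array was above every Ti-Ref array (11.8% of all transcript clusters) and in 1 every array was below (11.6%). An unadjusted p under 0.05 was reached by 3 genes that were higher (12.5% of all transcript clusters) and 1 that was lower (11.8%), and the Ti-TMS-PEI mean was the higher one in 7 (49.5%). The median log2 fold change was 0.12 for the 10 genes and 0.00 for all transcript clusters, with the 5th to 95th percentile of all from -0.50 to 0.54.

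PHLDA1 had log2 signals of 12.73, 12.64, 12.79 and 12.50 on the Ti-TMS-PEI arrays of 24 h and 12.03, 11.99 and 12.03 on the Ti-Ref arrays. The 3 uncoated arrays were within 0.04 of each other, and the surfaces were 0.47 apart. The log2 fold change was 0.65 ± 0.10 (SE, 95% interval 0.42 to 0.88), or 1.57-fold, with an adjusted p of 0.00668 from limma. The call was kept without any 1 of the 7 arrays, with log2 fold changes of 0.61 to 0.70.

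SPRY4 had 12.75, 12.72, 13.07 and 12.67 on Ti-TMS-PEI, against 12.25, 12.41 and 12.05 on Ti-Ref. All coated arrays were again above all uncoated ones, by 0.26, with Ti-TMS-PEI C the highest. The log2 fold change of 0.57 ± 0.13 (SE), or 1.48-fold, had an adjusted p of 0.0312 from limma and missed only the fold threshold. Without Ti-Ref B (0.65, adjusted p = 0.0491) or without Ti-TMS-PEI D (0.61, adjusted p = 0.0406) it was called. Without any 1 of the other 5 arrays the adjusted p from limma was 0.0537 to 0.105, above the threshold. It was also above the threshold with median centring (0.0519) and with the replicate block (0.112). SPRY2 had 9.12, 9.22, 8.91 and 9.33 on Ti-TMS-PEI, against 9.26, 8.98 and 8.91 on Ti-Ref. Its lowest coated and lowest uncoated arrays were equal, and the 95% interval of its log2 fold change (0.10) was -0.21 to 0.40. SPRY1, at 10.16, 9.78, 9.63 and 9.73 on Ti-TMS-PEI, against 9.93, 9.60 and 9.68 on Ti-Ref, overlapped as it did after 4 h, with array A the highest on both surfaces (log2 fold change 0.09, 95% interval -0.24 to 0.42).

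SPRED1 had 10.72, 10.58, 10.34 and 10.25 on Ti-TMS-PEI, against 10.09, 10.03 and 9.88 on Ti-Ref, with 0.16 between the surfaces. Its log2 fold change of 0.47 ± 0.13 (SE) had an adjusted p of 0.0601 from limma. SPRED2 had 11.45, 11.65, 11.41 and 11.36 on Ti-TMS-PEI, against 11.26, 11.16 and 11.52 on Ti-Ref, where Ti-Ref C was above 3 of the coated arrays. Its log2 fold change was 0.15, with a 95% interval from -0.12 to 0.43. SPRED3 again had signals below the medians of the arrays and overlapped, at 4.97 to 5.05 on Ti-TMS-PEI, against 4.70 to 5.30 on Ti-Ref.

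Of the PEA3 factors, ETV1 had 11.37, 11.51, 11.73 and 11.54 on Ti-TMS-PEI, against 11.82, 11.78 and 11.76 on Ti-Ref. All coated arrays were below the uncoated ones, by only 0.03 at the nearest, and the log2 fold change of -0.25 ± 0.11 (SE) had an adjusted p of 0.196 from limma. ETV5 had 13.32, 13.10, 13.30 and 13.03 on Ti-TMS-PEI, against 13.31, 13.54 and 13.44 on Ti-Ref, so that Ti-TMS-PEI A was 0.01 above Ti-Ref A and the surfaces overlapped. Its log2 fold change of -0.24 was close to that of ETV1, with a 95% interval from -0.50 to 0.02. ETV4, at 7.91, 7.84, 8.23 and 7.89 on Ti-TMS-PEI, against 7.57, 7.91 and 7.74 on Ti-Ref, had a log2 fold change of 0.23 (95% interval -0.07 to 0.52) and also overlapped.

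**Figure D2:**
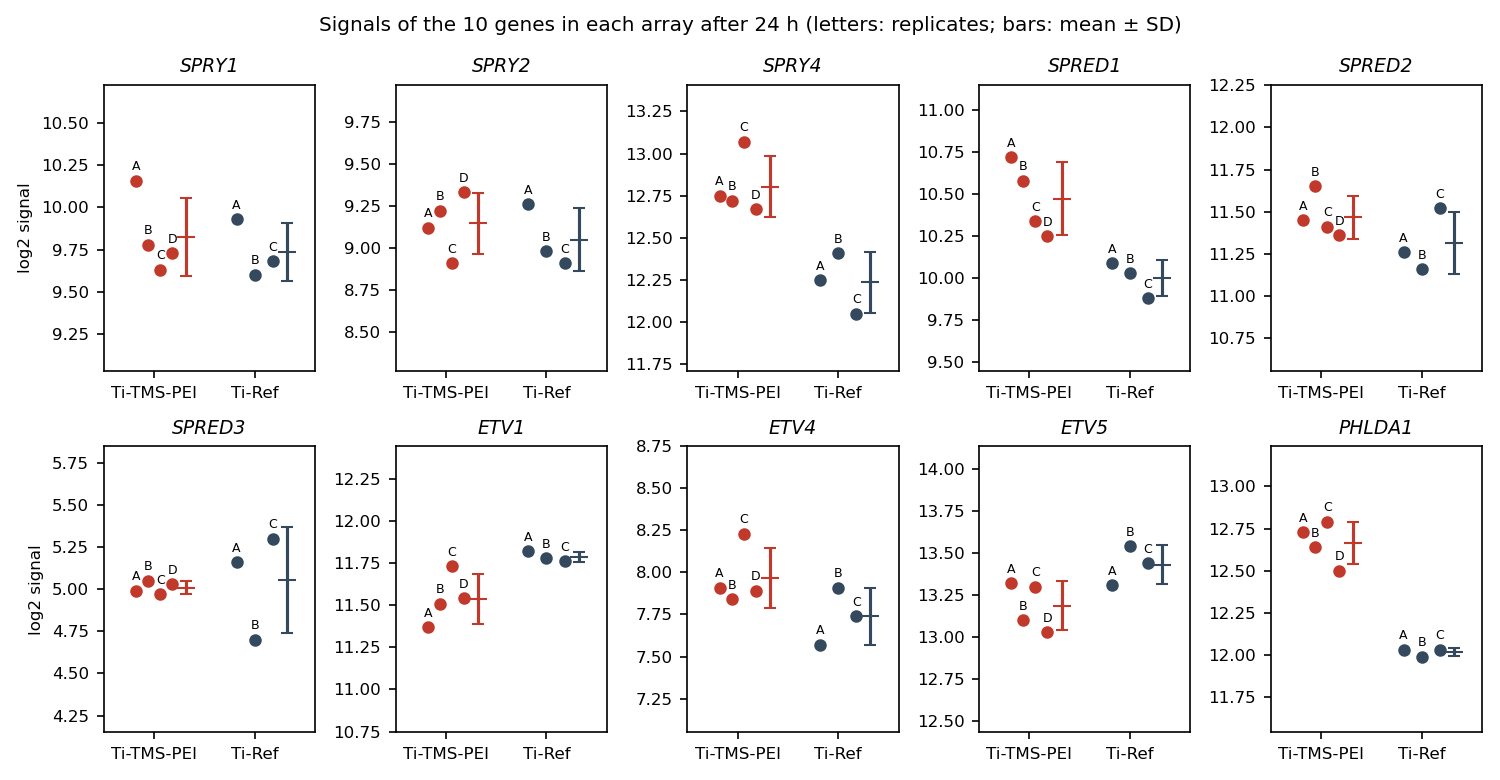
Log2 signals (y axis, each panel with its own range of levels) of the 10 genes on Ti-TMS-PEI (left, red, 4 arrays) and Ti-Ref (right, blue, 3 arrays) after 24 h, where points are arrays with their replicate letter and bars are the mean ± SD. The coated arrays of PHLDA1 lie between 12.50 and 12.79, above the uncoated ones at 11.99 to 12.03, and the coated arrays of ETV1 lie below the uncoated ones.

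Markers of other cell types differed in part at 24 h. Of the 8 blood cell markers, 4 were higher in the mean on Ti-TMS-PEI (49.5% of all transcript clusters). Their list means were 5.98 to 6.26 on Ti-TMS-PEI, against 5.87 to 6.09 on Ti-Ref, over all 8 markers. CD68, a macrophage marker that is also a lysosomal protein of other cells, was called with 1.22 on the log2 scale (adjusted p = 0.00173 from limma), and the endothelial cadherin CDH5 was called at 0.77 (adjusted p = 0.0249 from limma). These were 1 of 8 blood cell and 1 of 4 endothelial markers, where 3.46% of all transcript clusters were called higher. The list means of the 4 endothelial markers were 5.66 to 6.04 on Ti-TMS-PEI, against 5.55 to 5.66 on Ti-Ref. PTPRC averaged 5.34 on Ti-TMS-PEI, against 5.93 on Ti-Ref. The part of these signals in the higher value of PHLDA1 was not tested.

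Whether the coating effect differed between the times was tested as the effect at 24 h minus that at 4 h, over all 15 arrays in 1 limma fit. It was lower at 24 h for SPRY2 and for ETV5, and the log2 fold change of ETV5 was above 0 at 4 h and below 0 at 24 h. The log2 fold change of SPRY2 was 0.76 at 4 h and 0.10 at 24 h, a difference of -0.66 ± 0.18 (SE, 95% interval -1.05 to -0.27, adjusted p = 0.0498 from limma). ETV5 had 0.35 at 4 h and -0.24 at 24 h, a difference of -0.59 ± 0.16 (SE, 95% interval -0.93 to -0.26, adjusted p = 0.0395 from limma). These were 2 of the 10 genes, while 4.78% of all transcript clusters passed in either direction and 2.19% with a lower coating effect at 24 h. Both results rest on effects within tables that were normalized separately, and both were near the threshold. SPRY2 passed in 2 of the 15 fits without 1 array, without Ti-Ref C of 4 h and without Ti-TMS-PEI D of 24 h (adjusted p 0.0342 to 0.137 over all 15), and ETV5 passed in 3, without Ti-Ref D of 4 h and without Ti-TMS-PEI A or C of 24 h (adjusted p 0.0189 to 0.107).

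The other 8 genes did not pass. ETV1 had 0.28 at 4 h and -0.25 at 24 h and a difference of -0.53 (95% interval -0.91 to -0.16, adjusted p = 0.0993 from limma). SPRY4 had a difference of -0.46 (-0.81 to -0.11, adjusted p = 0.131), and SPRED2 of -0.35 (-0.70 to 0.00, adjusted p = 0.257). PHLDA1 differed by -0.11 (-0.49 to 0.27), SPRED1 by 0.07 (-0.28 to 0.42) and ETV4 by 0.08 (-0.27 to 0.43). SPRY1 differed by 0.20 and SPRED3 by -0.38, both with intervals that held 0.

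**Figure D3:**
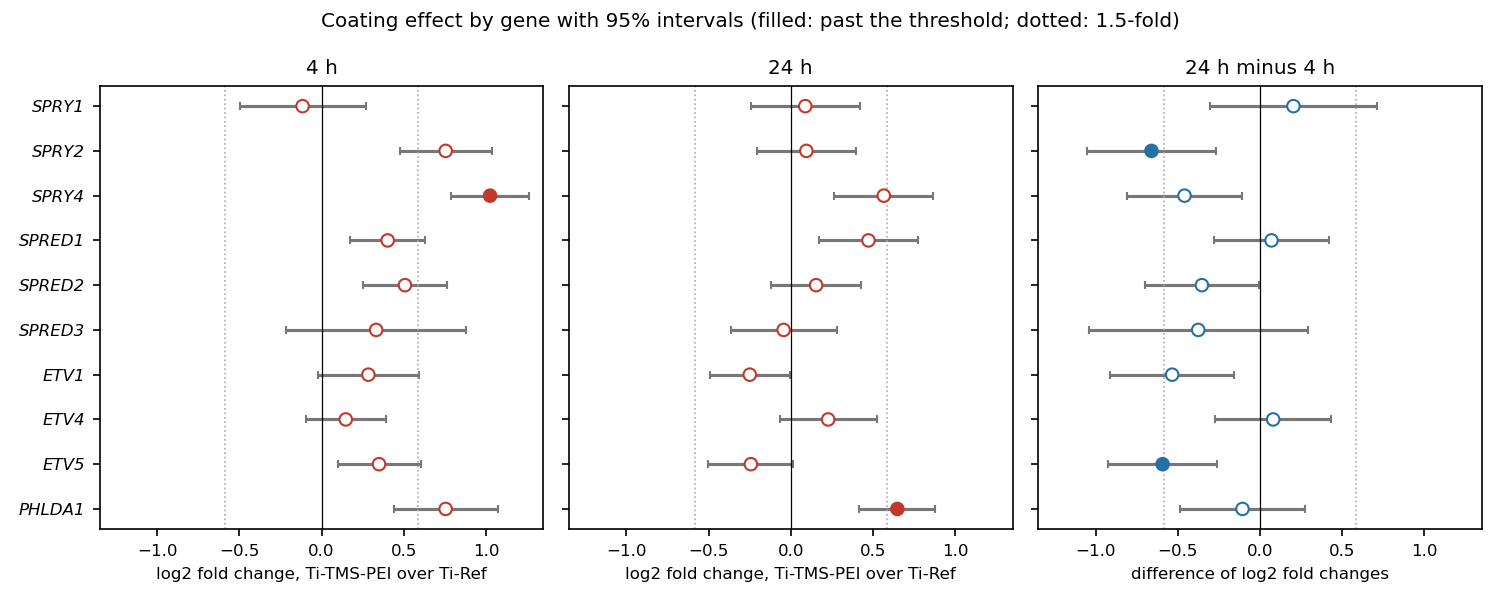
Log2 fold change of Ti-TMS-PEI over Ti-Ref (x axis) of each gene after 4 h (left) and 24 h (middle) and the difference of these effects, 24 h minus 4 h (right), with 95% intervals from limma. Filled points passed the threshold, which were SPRY4 at 4 h, PHLDA1 at 24 h, and SPRY2 and ETV5 for the difference, and dotted lines mark a 1.5-fold change.

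Whether genes of a family differed in their response was read from the difference of their log2 signals within each array, which removes what is common to an array. There were 9 pairs at each time, tested with a two-sided exact permutation test of the arrays. The smallest p the design allows is 0.0286, which becomes 0.0857 after adjustment over the 9 pairs where 3 of them reach it, and no pair was called. How often pairs of other genes do not overlap was not counted at either time. At 4 h the 3 Sprouty pairs did not overlap. SPRY1 minus SPRY4 was -3.99 to -3.63 on Ti-TMS-PEI, against -3.16 to -2.34 on Ti-Ref, so that the log2 fold change of SPRY1 minus that of SPRY4 was -1.14. The same difference was -0.87 for SPRY1 minus SPRY2 and -0.27 for SPRY2 minus SPRY4. The SPRED pairs and the ETV pairs overlapped at 4 h, with differences of -0.20 to 0.18.

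At 24 h the Sprouty pairs overlapped, and SPRY1 and SPRY2 differed in response by -0.01 (exact permutation p = 0.971). Both pairs with ETV4 did not overlap. ETV1 minus ETV4 was 3.46 to 3.67 on Ti-TMS-PEI, against 3.87 to 4.25 on Ti-Ref, a difference of -0.48, and ETV4 minus ETV5 was -5.41 to -5.07 on Ti-TMS-PEI, against -5.74 to -5.63 on Ti-Ref, a difference of 0.47. ETV1 and ETV5 differed by -0.01 and overlapped. SPRED1 minus SPRED2 did not overlap either, at -1.11 to -0.73 on Ti-TMS-PEI, against -1.64 to -1.13 on Ti-Ref (a gap of 0.02), and had a difference of 0.32.

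Signals centred within each time were compared over the 15 arrays, as a description that the 2 surfaces and their shared normalization contribute to. SPRY4 and PHLDA1 were the most alike of the 10 genes, with a Pearson correlation of 0.92, and 0.43 once the group means were removed. SPRED1 and PHLDA1 had 0.84 (0.20 without the group means), SPRY2 and SPRY4 had 0.80 (0.06), and ETV1 and ETV5 had 0.71 (0.37). These likenesses thus lay mostly in the differences between the groups. SPRY1 was unlike the rest of its family, with -0.18 to SPRY4 and -0.13 to SPRY2, and had its lowest value to ETV1 at -0.54.

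**Figure D4:**
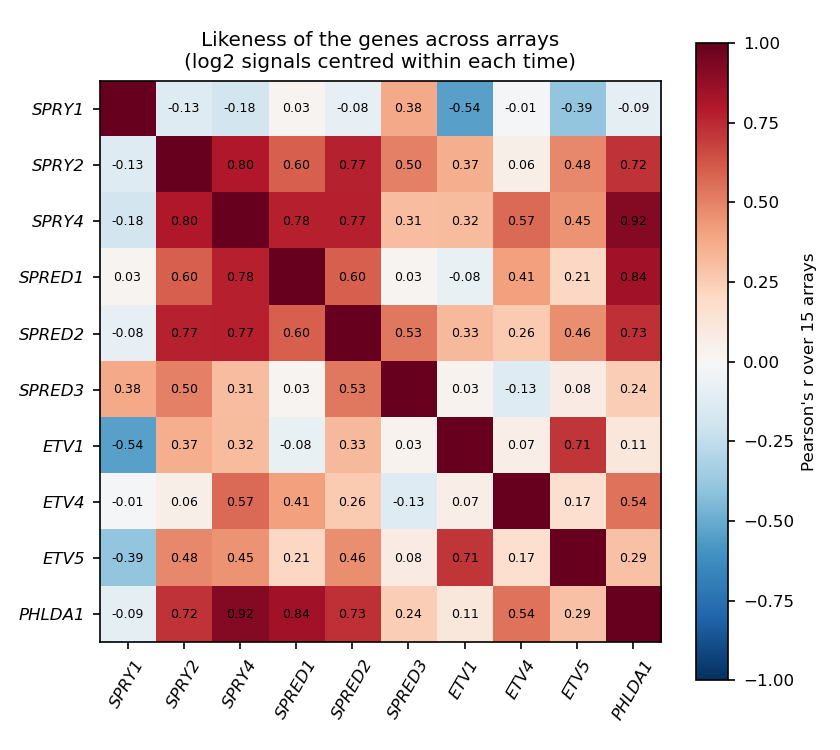
Pearson correlation between each pair of the 10 genes over 15 arrays, with log2 signals centred within each time, where red stands for positive and blue for negative values. SPRY4, PHLDA1, SPRED1, SPRED2 and SPRY2 share values from 0.60 to 0.92, and those of SPRY1 with the other genes run from -0.54 to 0.38.

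Of all genes with 1 symbol, those most like SPRY4 over the 15 arrays were the kinase gene SGK1 (0.94), the urokinase receptor PLAUR (0.93) and the phosphate transporter SLC20A1 (0.92), an ERK-dependent target. The best match among 17687 genes was also high for SPRY1 (0.95) and SPRED3 (0.84), whose surfaces overlapped at both times. PLAUR had log2 fold changes of 1.04 at 4 h and 0.90 at 24 h, and SGK1 of 0.71 at 4 h and 0.53 at 24 h. Those most like PHLDA1 were SLC20A1 (0.95), ZSWIM6 (0.93) and the MAP kinase phosphatase DUSP1 (0.92). SPRY2 was most like the immediate early gene IER2 (0.89), urokinase PLAU (0.88) and the phosphatase PTPN12 (0.86), each with a log2 fold change of 0.47 to 0.83 at 4 h and of 0.06 to 0.26 at 24 h. ETV5 was most like the ceramidase ACER2 (0.89), the receptor TAAR9 (0.88) and RPF1 (0.85), all positive at 4 h (0.18 to 0.62) and negative at 24 h (-0.33 to -0.17). These correlations include the differences between the surfaces, so genes picked by them repeat such fold changes by selection.

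The rest of the pathway was read from lists chosen by role, with earlier results of these data known. The paper had already reported DUSP6 and HBEGF, like SPRY4, as differentially expressed at 4 h, so their calls are no independent support. Of 17 further ERK-dependent target genes measured, the ERK phosphatase DUSP6 alone was called at 4 h, where 0.0326% of all transcript clusters were called higher. It was at 13.71 to 14.00 on Ti-TMS-PEI, against 12.96 to 13.06 on Ti-Ref (log2 fold change 0.80 ± 0.10 SE, adjusted p = 0.0438 from limma). At 4 h 15 of the 17 were higher in the mean on Ti-TMS-PEI (48.6% of all transcript clusters), and 12 had an unadjusted p under 0.05, all of them higher (4.4% of all). Their median log2 fold change was 0.45, beside 0.38 for the Sprouty, SPRED, ETV and PHLDA1 genes and 0.00 for all genes with 1 symbol. At 24 h the directions were mixed, with 3 of the 17 upregulated (3.46% of all transcript clusters) and 3 downregulated (2.69%). The upregulated ones were the transcription factor EGR1 (2.64, adjusted p = 0.000441), the cytokine LIF (1.03, adjusted p = 0.00192) and the phosphatase DUSP5 (0.79, adjusted p = 0.0134), and the downregulated ones were the receptor EPHA2 (-0.83, adjusted p = 0.00474), the polymerase subunit POLR3G (-0.87, adjusted p = 0.0216) and the phosphatase DUSP7 (-0.60, adjusted p = 0.0272), all from limma. DUSP6, like SPRY2, overlapped between the surfaces at 24 h, with a log2 fold change of 0.19.

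**Figure D5:**
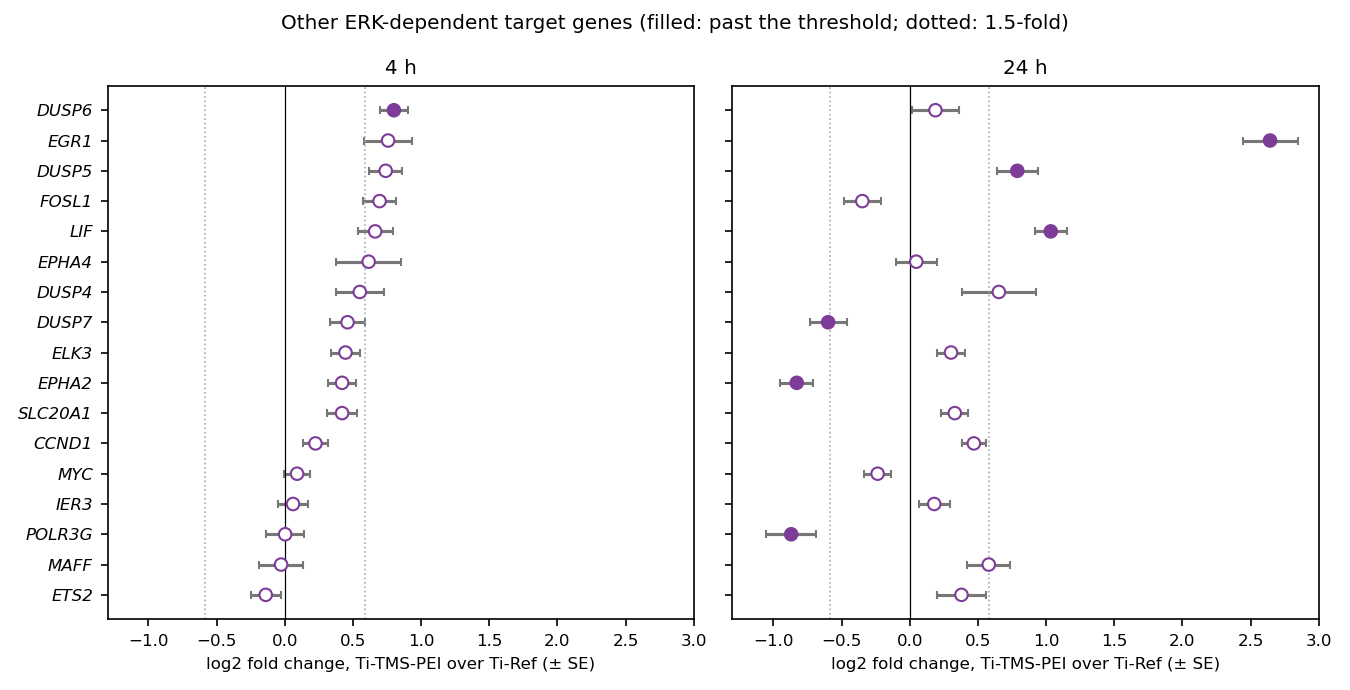
Log2 fold change of Ti-TMS-PEI over Ti-Ref (x axis, ± SE) of 17 further ERK-dependent target genes after 4 h (left) and 24 h (right), ordered by the change at 4 h. Filled points passed the threshold and dotted lines mark a 1.5-fold change: DUSP6 passed at 4 h, and EGR1, LIF and DUSP5 (higher) and EPHA2, POLR3G and DUSP7 (lower) passed at 24 h.

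Upstream of the feedback genes, 0 of 12 genes of the Ras-RAF-MEK-ERK cascade were called at 4 h, and 0 had an unadjusted p under 0.05 (median log2 fold change -0.03). At 24 h 10 of the 12 were higher in the mean (49.5% of all transcript clusters), and the median was 0.17. An unadjusted p under 0.05 was reached by 5, of which 3 were higher (12.5% of all) and 2 lower (11.8%). The adaptor GAB1 alone was called, higher (0.61, adjusted p = 0.0493 from limma), which is 1 of 12 where 3.46% of all transcript clusters were. Under the fold threshold but with an adjusted p under 0.05 from limma were the kinases MAP2K1 (0.52, adjusted p = 0.0383) and MAPK3 (0.42, adjusted p = 0.0357) and the GTPase HRAS (-0.46, adjusted p = 0.0448). Of 15 receptor tyrosine kinases 0 were called at 4 h, with FGFR2 alone at an unadjusted p under 0.05 (-0.39). At 24 h PDGFRB was called higher (1.51, adjusted p = 0.00185) and MET lower (-0.66, adjusted p = 0.0278, from limma), where 3.46% and 2.69% of all transcript clusters were. Lower under the fold threshold were EGFR (-0.53, adjusted p = 0.0235), AXL (-0.45, adjusted p = 0.0242) and the dim FLT1 (-0.54, adjusted p = 0.0217, from limma). An unadjusted p under 0.05 was reached by 4 that were higher (12.5% of all) and 4 that were lower (11.8%). Of 23 ligands of these receptors, the EGF receptor ligand HBEGF alone was called at 4 h, where 0.0326% of all transcript clusters were called higher. It was at 10.89 to 11.57 on Ti-TMS-PEI, against 9.74 to 10.15 on Ti-Ref (log2 fold change 1.22, with an adjusted p of 0.0438 from limma). The list went both ways at 4 h, with a median log2 fold change of 0.0025. An unadjusted p under 0.05 was reached by 3 ligands that were higher (4.4% of all) and 3 that were lower (5.06%). At 24 h FGF18, FGF7 and VEGFA were higher and FGF2, FGF5 and GAS6 were lower, with FGF2 at -0.99 and FGF18 at 0.92. These were 3 of 23 in each direction, where 3.46% of all transcript clusters were called higher and 2.69% lower.

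Of 11 partners and regulators of the Sprouty, SPRED and PEA3 proteins, 0 were called at 4 h and 0 had an unadjusted p under 0.05, with NF1, the neurofibromin gene, at -0.18 and the ubiquitin ligase gene COP1 at -0.31. At 24 h ATXN1, which encodes a partner of Capicua, was called higher (0.68, adjusted p = 0.0456 from limma), and CIC, the Capicua gene, was at 0.32 (adjusted p = 0.182). ATXN1 was 1 of 11, where 3.46% of all transcript clusters were called higher. Among the relatives of PHLDA1, PHLDA2 was higher on every coated array at 4 h (0.49, adjusted p = 0.180) and was called at 24 h (1.08, adjusted p = 0.00192 from limma), at 11.77 to 12.08 on Ti-TMS-PEI, against 10.72 to 11.02 on Ti-Ref. PHLDA3 had log2 fold changes of -0.11 at 4 h and 0.12 at 24 h. The third Sprouty gene, SPRY3, was below the medians of the arrays in its group means, with log2 fold changes of 0.18 at 4 h and 0.43 at 24 h and surfaces that overlapped at both times.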

How the data were processed

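Each of the 15 RNA samples of the MG-63 line was measured on its own Clariom S array. The authors processed the arrays in the Transcriptome Analysis Console by SST-RMA (background adjustment, quantile normalization, summarization) and deposited log2 signals of 21448 transcript clusters, 17709 of them with 1 gene symbol. They excluded 1 Ti-Ref array of 24 h because of its labelling controls. Deposited log2 signals were used as they stand, and 0 columns of per-sample values were left unused.

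Each time was fitted with limma 3.58.1 in R 4.3.3 with no term but the coating, and p-values were adjusted by Benjamini-Hochberg over all transcript clusters. The difference between the times was a contrast of 4 group means. The fits were tested on simulated data with known changes. Gene pairs were compared by exact permutation with scipy 1.17.1, and figures were drawn with matplotlib 3.10.9. Symbols came from the platform annotation and promoters from RefSeq tables. Protein sequences were not used here.

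The 10 genes and the lists were chosen with earlier results of these data known, and no p-value was adjusted over a list. The genes named were the 10 themselves, up to 4 called genes of each list by adjusted p (or up to 2 by p where none was called), and the 3 genes most correlated with SPRY4, PHLDA1, SPRY2 and ETV5. SPRY3, PHLDA3, SP7, COL1A1, PTPRC, HBB, CIC, POLR3G, DUSP7, MAP2K1, MAPK3, HRAS, VEGFA, GAS6 and DUSP6 at 24 h were named outside this rule, after their values were seen. So were EGFR, AXL and FLT1. SH2B3, BGLAP, 6 genes of the cascade and 2 partners were not analysed here, and 1 further gene is not reported here.

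Replicate letters were not taken to pair arrays: residuals of coated and uncoated arrays that bear 1 letter correlated at -0.03 to 0.05 at 4 h and -0.07 to -0.06 at 24 h. Alternatives tried were the replicate letter as a block, 1 fit for all arrays, array weights, a variance that was trended and robust, a filter on the dimmest 25 percent, median centring, a second quantile normalization, other thresholds and each array left out in turn. No level was compared across the times.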

Additional observations from a re-analysis of the deposited data

Results flagged for a closer look

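The signal of SPRED2 on Ti-TMS-PEI B at 4 h, 11.27, stood apart from the other 3 coated arrays, which were at 10.91 to 10.95, and it was the highest of its group. Without this array the log2 fold change of SPRED2 at 4 h was 0.42 and all coated arrays were still above the uncoated ones. The signal of SPRED3 on Ti-Ref D at 4 h, 4.66, stood apart below the other 3 uncoated arrays, at 5.17 to 5.25, and without it the log2 fold change of SPRED3 was 0.19. With all arrays it was 0.33, and other arrays moved it further, to 0.17 without Ti-TMS-PEI A and to 0.56 without Ti-TMS-PEI C. Of 30 groups of 4 arrays examined in this way 2 had such an array, and chance alone gives about 1 in 20 groups.

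In the fit of all arrays the coating effect at 24 h minus that at 4 h passed for SPRY2, at -0.66, and for ETV5, at -0.59. Both were near the threshold. Without 1 array, SPRY2 passed in 2 of 15 fits and ETV5 in 3 of 15. All 4 coated arrays of SPRY2 were above the uncoated ones at 4 h and overlapped with them at 24 h, and those of ETV5 were above by 0.06 at 4 h and overlapped by 0.01 at 24 h, with a mean below that of Ti-Ref.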

How the results depend on the processing

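Within each time no gene changed its direction under another variance model, weighting, filter, threshold or scaling. At 4 h, 3 genes were called (SPRY2, SPRY4 and PHLDA1) with trended and robust variance, with an unadjusted p and the 1.5-fold threshold, and with all 15 arrays in one fit, and without 1 array the count was 0 to 1. At 24 h, 2 were called (SPRY4 and PHLDA1) after a second quantile normalization and without a fold threshold, and without 1 array the count was 1 to 2, with SPRY4 added without Ti-Ref B or Ti-TMS-PEI D. For the difference between the times, 1 was called (SPRY2) after the second quantile normalization, and 0 to 1 without 1 array. With the replicate block, 0 genes were called at 4 h (SPRY4 kept a log2 fold change of 1.02, with an adjusted p of 0.227 from limma) and 0 for the difference (-0.72 for SPRY2 and -0.54 for ETV5), and over all transcript clusters the calls numbered 0 in place of 9 at 4 h and 853 in place of 1319 at 24 h. The difference changed sign with median centring for SPRED1 (-0.025) and ETV4 (-0.015) and with the second quantile normalization for PHLDA1 (0.014). Without 1 array it ran from -0.0125 to 0.14 for SPRED1, from -0.0075 to 0.17 for ETV4 and from -0.18 to 0.0033 for PHLDA1, while the log2 fold change at 24 h ran from -0.22 to 0.08 for SPRED3 and from -0.023 to 0.19 for SPRY1. The cause was not tested. Of 300 values without 1 array, 259 kept their direction and their side of the threshold, and of 200 under other settings 188 did. Most of these values belong to results that were not called, so the totals do not describe the called ones. Without 1 array, SPRY4 at 4 h stayed called in 1 of 8 fits and PHLDA1 at 24 h in 7 of 7. The difference between the times stayed called in 2 of 15 fits for SPRY2 and in 3 of 15 for ETV5. The filter removed 0 of the 10 genes, and since each has 1 transcript cluster, another cluster per gene could not be tried. Signals below the array medians limit SPRED3, and the 3 Ti-Ref arrays limit 24 h.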
